A study of Homo sapiens with 7 samples.

Results

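Collagen genes were followed in cultures of the HT1080 line, established from a human fibrosarcoma, and taken as all genes whose current symbol is COL, a number, A and a number. The array annotation held 43 such genes of the 19775 genes read, covered by 112 probe sets that were each assigned to a single gene. A probe set is a group of short probes for the same transcript, and its signal intensity was measured in all 7 arrays. COL17A1 was not analysed here.

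The 7 cultures had 1 array each. Per the labels, the cells were kept in medium with foetal bovine serum and plated a day ahead, and the medium was replaced as the additions were made for 2 h. The treatment of the untreated culture is given as none, with no time. The labels name no solvent, and whether the untreated culture also had its medium replaced is not known, which bears on every difference against it. Catechin was given at a dose of 11.25 ng/ml. Epicatechin and taxifolin shared a dose of 6.25 ng/ml, and the resveratrol dose was 2195 ng/ml. A further culture received 5% control serum, whose origin the labels do not give. The last received 5% serum called pycnogenol-positive, from patients who had taken pycnogenol, a pine bark extract. All cultures were of 1 cell line, so none of the values speaks for other tumour cells. With 1 array a group there is no replicate error and no test, and every difference below describes 2 arrays.

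Collagens are secreted proteins whose chains wind into a triple helix of repeating glycine-rich units. Fibrillar collagens form the ropes of skin, bone and scar. Type IV chains form the sheet of basement membranes, type VI chains form beaded filaments close to cells, fibril-associated chains decorate fibrils, and transmembrane collagens stay anchored in the cell surface. HT1080 cells are known as a culture source of type IV collagen.

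A difference below is a log2 difference, with the array named first less the array it is set against. A floor of 34.9, which is the 25th percentile of the signals, replaced anything smaller before logarithms were taken. Each gene was read from its brightest probe set by mean log2 signal. A gene was compared when that mean reached the median over genes, a signal of 269, as it did for 9888 genes. Signals of different probe sets depend on the probes, so genes are not ranked against each other here. No detection calls were at hand, so a signal under 269 was not shown to be above background.

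The median signal per array lay between 114 and 136. Between 23.3% and 26.2% of the values in an array were under the floor of 34.9. The standard deviation of log2 differences over the compared genes was 0.235 to 0.282 for the 10 pairings among arrays without test serum. It was 0.323 to 0.387 for the 10 pairings across the sera and those arrays. Of 7 listed mesenchymal markers 6 were above the filter, and their summed signal was 124452 to 131127 in the 5 arrays without test serum and 132305 to 136671 with serum. VIM, the filament protein vimentin, read 46701 to 50229. None of 7 measured epithelial markers and none of 6 endothelial markers reached the filter, and the sums of these lists stayed at or under 537 in every array. The endothelial cadherin CDH5 was at or under the floor in all 7 arrays, and the blood cell marker PTPRC read no more than 79.7. Of 6 measured blood cell markers 1 passed the filter, HBB, a globin chain, at 227 to 413 without test serum and 382 and 522 with the sera. A second HBB probe set above the filter read 203 to 403 without test serum and 167 and 333 with the sera. The probe sets put control serum on opposite sides of the untreated array.

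Promoter sequences are shown for 4 genes whose values carry the comparisons below: the type IV pair COL4A1 and COL4A2, which read higher with serum, COL13A1, which read lower, and COL6A3, which read nearly the same in all arrays. They span 250 bases before to 50 bases after the start site in the RefSeq table for GRCh38.p14, 5′ to 3′ on the gene's own strand. COL4A2 lies on the plus strand at chr13:110307034-110307333 and COL4A1 on the minus strand at chr13:110307108-110307407. COL13A1 lies on the plus strand at chr10:69801656-69801955 and COL6A3 on the minus strand at chr2:237414115-237414414. Capitals mark matches, on either strand, to the GC box GGGCGG, the CCAAT box CCAAT, the TATA box TATAAA, the SMAD-type letters CAGAC, and the CTC box CCCTNCCCC known from type IV collagen promoters.
COL4A2: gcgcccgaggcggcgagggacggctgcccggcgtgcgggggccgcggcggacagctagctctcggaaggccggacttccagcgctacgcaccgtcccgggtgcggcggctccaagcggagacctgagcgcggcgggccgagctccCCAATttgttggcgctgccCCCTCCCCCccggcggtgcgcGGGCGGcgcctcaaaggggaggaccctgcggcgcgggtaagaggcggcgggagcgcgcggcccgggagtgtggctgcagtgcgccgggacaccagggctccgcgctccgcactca
COL4A1: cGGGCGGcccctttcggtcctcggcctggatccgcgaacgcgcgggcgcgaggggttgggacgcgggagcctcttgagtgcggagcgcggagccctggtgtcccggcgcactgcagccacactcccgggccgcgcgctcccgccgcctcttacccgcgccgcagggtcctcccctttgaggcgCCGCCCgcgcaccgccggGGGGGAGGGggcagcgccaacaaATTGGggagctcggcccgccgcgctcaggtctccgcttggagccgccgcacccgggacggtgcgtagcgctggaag
COL13A1: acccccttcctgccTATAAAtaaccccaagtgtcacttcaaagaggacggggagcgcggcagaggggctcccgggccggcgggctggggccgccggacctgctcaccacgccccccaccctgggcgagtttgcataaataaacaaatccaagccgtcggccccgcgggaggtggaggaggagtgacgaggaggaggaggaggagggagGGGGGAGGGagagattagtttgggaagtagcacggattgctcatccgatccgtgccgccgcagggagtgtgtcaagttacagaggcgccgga
COL6A3: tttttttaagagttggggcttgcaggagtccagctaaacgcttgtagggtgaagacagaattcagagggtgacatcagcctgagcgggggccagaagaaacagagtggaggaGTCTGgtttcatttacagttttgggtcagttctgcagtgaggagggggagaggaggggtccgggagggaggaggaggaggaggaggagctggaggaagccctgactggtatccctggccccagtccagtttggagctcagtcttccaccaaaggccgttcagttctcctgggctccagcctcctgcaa

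The COL4A1 and COL4A2 windows are the same stretch of chromosome 13 read from opposite strands. They share 226 bases, and the start sites lie 127 bases apart, head to head. Between the start sites both windows hold the same CCAAT box, CTC box and GC box, none of them overlapping another, and the COL4A1 window has a further GC box 249 bases before its start. The COL13A1 window has a TATA box match 236 bases before the start and a CTC box match on the other strand. The COL6A3 window has a single match, to CAGAC read on the other strand. Of all 27305 promoters in the table, 44.6% held GGGCGG, 35.7% CCAAT, 12.0% TATAAA, 45.0% CAGAC and 10.7% CCCTNCCCC. RefSeq promoters were matched for 31 of the 43 collagen genes, and these held the motifs in 18, 9, 4, 12 and 10 cases in the same order. GC content was 77.7% in the COL4A2 window, 76.7% in COL4A1, 64.0% in COL13A1 and 56.3% in COL6A3, beside a median of 58.3% for all promoters and 66.7% for the matched collagen promoters. These matches describe letters and do not show a factor at work.

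Of the 43 collagen genes, 11 were above the signal filter, which is 25.6%, while 9888 of all 19775 genes were. The genes that passed came from 6 of the 9 classes. They were 3 of 6 type IV genes, COL4A1, COL4A2 and COL4A5, and 2 of 5 type VI genes, COL6A1 and COL6A3. COL13A1 was 1 of 3 transmembrane collagens, COL12A1 was 1 of 10 fibril-associated ones, and COL18A1 was 1 of 2 multiplexins. Of the 11 fibrillar genes, COL27A1, COL11A2 and COL1A1 passed. The single type VII gene, the 3 genes of types VIII and X, and COL26A1 and COL28A1 did not.

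**Figure D1:**
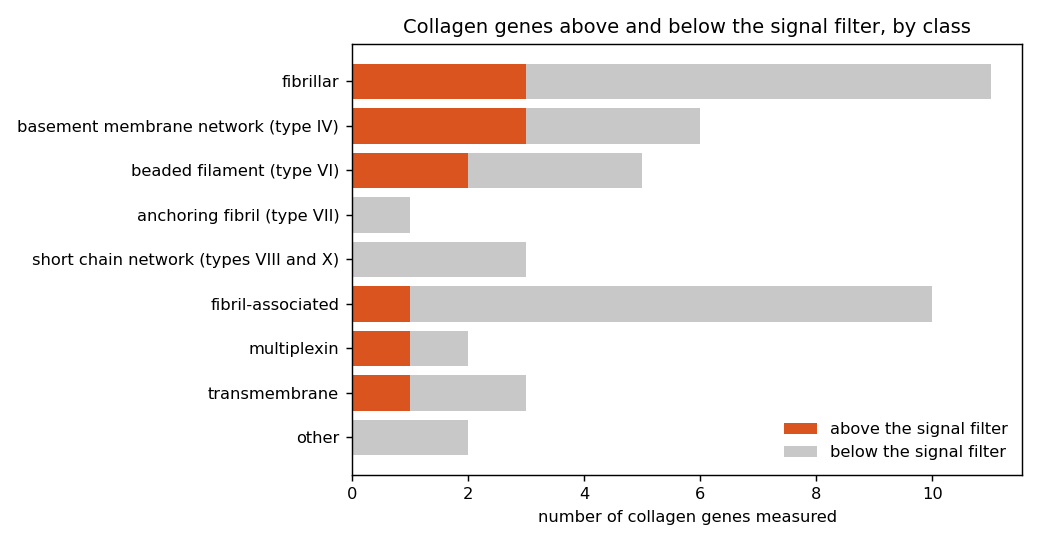
Number of measured collagen genes in each structural class, split into genes whose reading probe set was above the signal filter (orange) and those below it (grey). The x axis counts genes: 11 genes stand above the filter and 32 below, and the fibrillar class has 3 of 11 above.

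Of the 11 fibrillar collagens 8, among them several typical of fibroblasts, read below the filter in these fibrosarcoma cells. COL1A1, a chain of type I collagen, passed the filter through 1 of its 5 probe sets. That probe set, of the x type that can bind related transcripts, read 346 in the untreated culture, 456 with catechin, 339 with epicatechin, 419.7 with taxifolin, 382 with resveratrol, 343 with control serum and 314 with pycnogenol serum. The other 4 COL1A1 probe sets read between 3.10 and 181 in all arrays, so the COL1A1 level rests on the x-type probe set. COL1A2, the partner chain of type I collagen, read 9.95 to 159 on its reading probe set. COL3A1, the chain of type III collagen, read 2.44 to 78.3, with its 5 probe sets all at or under 78.3. The type V chains COL5A1, COL5A2 and COL5A3, which help to start fibrils, had mean signals of 159, 131 and 107.

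COL27A1, a fibrillar collagen known from cartilage, was the fibrillar gene with several probe sets above the filter. It read 2017 in the untreated culture, 1912 with catechin, 1878 with epicatechin, 2214 with taxifolin, 1903 with resveratrol, 1859.6 with control serum and 2004 with pycnogenol serum. These 7 values span 1.19-fold. COL11A2, a chain of cartilage type XI collagen, lay just inside the filter with 254 to 373. SOX9, the main transcription factor of cartilage genes and a marker of that cell type, read 6387 to 13318, while the cartilage proteins COMP and MATN3 read at most 67.7 and COL2A1, the cartilage type II chain, 60.3 to 119.

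**Figure D2:**
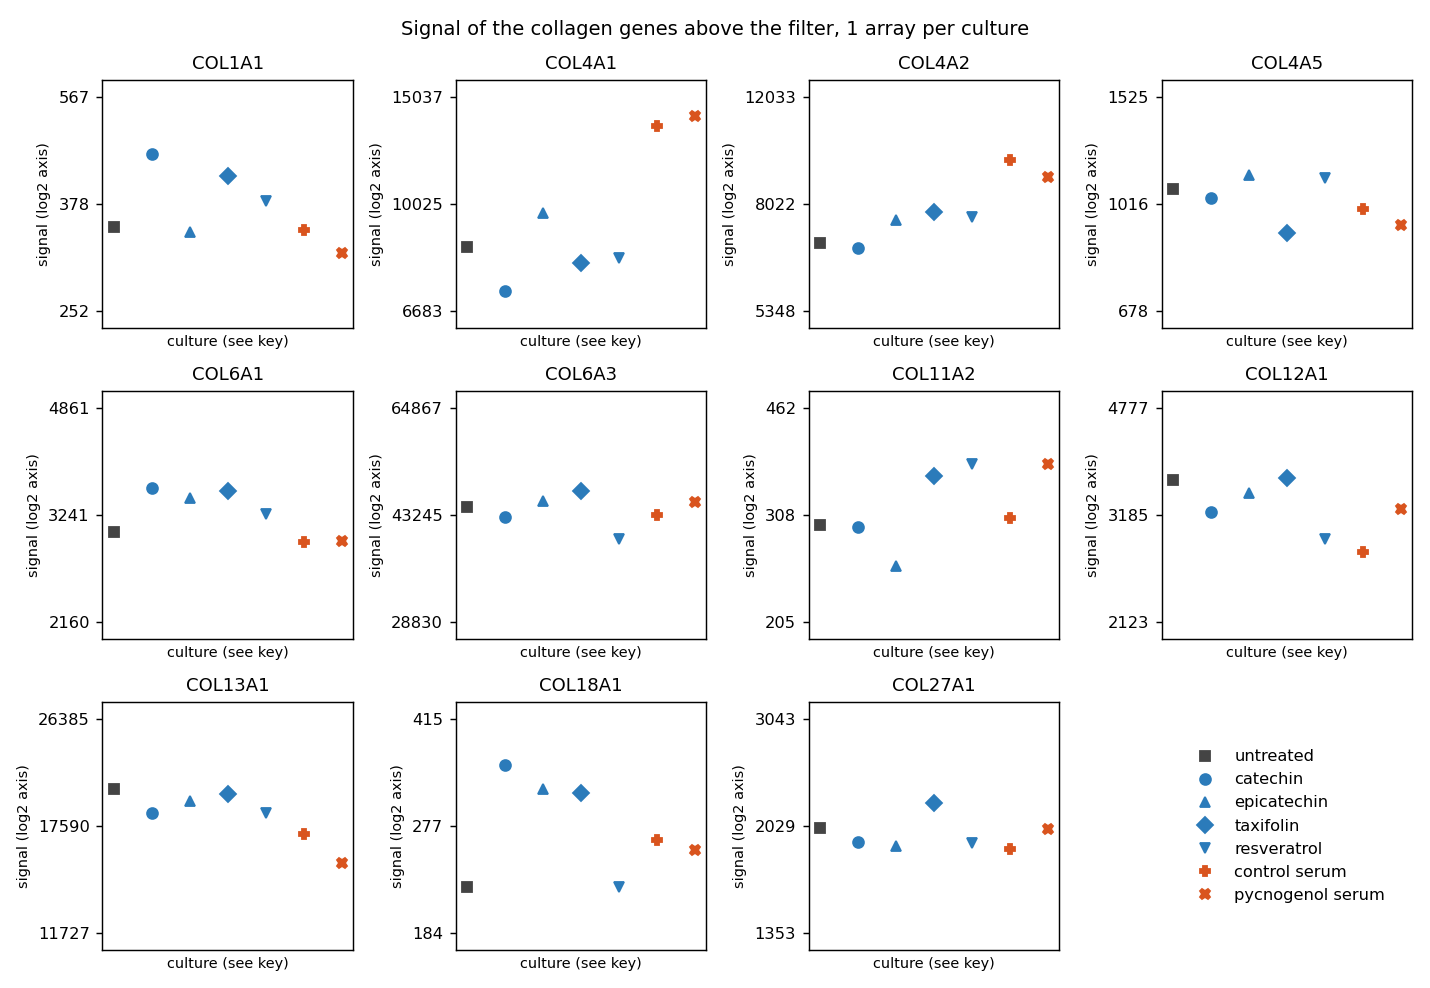
Signal of the 11 collagen genes above the filter in the 7 cultures, 1 array each. The y axis is the signal of the gene's reading probe set on a log2 axis with the same fold span in every panel, and symbols mark the cultures. COL4A1 and COL4A2 stand highest in both serum arrays, COL13A1 and COL6A1 stand lowest there, though not once arrays are centred on their medians, and COL6A3 spans 1.20-fold over all arrays.

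The type VI genes gave uneven readings. COL6A3, the long chain of the type VI filament, read 44496 in the untreated culture, 42930.3 with catechin, 45545 with epicatechin, 47441 with taxifolin, 39419 with resveratrol, 43218 with control serum and 45484 with pycnogenol serum. Resveratrol was lowest and taxifolin highest, and both serum arrays lay within the range of the other 5. In the untreated array 99.6% of all probe sets were dimmer than this one, and whether a signal so close to the top of the scale follows the transcript in proportion was not tested. COL6A1, a short chain of the same filament, read 3043 untreated, 3592 with catechin, 3459 with epicatechin, 3552 with taxifolin, 3247 with resveratrol, 2923 with control serum and 2934 with pycnogenol serum. Both serum arrays were lowest for COL6A1, by 1.04-fold from the nearest other array, and with arrays centred on their medians they were not; control serum against untreated then lay at 0.11 in place of -0.058. Its other 7 probe sets read 4.05 to 276. COL6A2, the remaining chain of that filament, lay just below the filter with 212 to 294, a mean signal of 252, beside 273 for COL18A1 just inside it.

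COL12A1, which coats fibrils in tissues under tension, read 3629.8 untreated, 3215 with catechin, 3461 with epicatechin, 3658 with taxifolin, 2913 with resveratrol, 2773 with control serum and 3263 with pycnogenol serum. Control serum and resveratrol were lowest, and the 2 serum arrays were not on the same side of the others. COL4A5, a type IV chain of the X chromosome, read 910.3 to 1135 in the 5 arrays without test serum and 997 and 937 with the sera, within that range. COL18A1, the source of the fragment endostatin, read 219.5 untreated, 349 with catechin, 319 with epicatechin, 313 with taxifolin, 219.4 with resveratrol, 263 with control serum and 253 with pycnogenol serum. The untreated and resveratrol arrays were the lowest for COL18A1 and the 3 flavonoid arrays the highest. Its second probe set, which stayed under the filter, read 165 untreated, 179.7 with catechin, 259 with epicatechin and 174 with taxifolin.

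The 32 genes below the filter had mean signals from 34.9 to 252 on their reading probe sets. COL9A3 and COL24A1 were at or under the floor in all 7 arrays. On the reading probe sets, single signals over 269 were seen in 4 of these genes, up to 308 for COL22A1 with resveratrol. Differences of at least 2-fold among them numbered 3 higher and 3 lower of 32 with control serum against untreated, beside 16.9% of all 9887 genes below the filter. Between the sera 1 was higher and 6 lower, beside 16.4%. With catechin, epicatechin, taxifolin and resveratrol against untreated they numbered 4, 4, 5 and 3, beside 16.4%, 16.6%, 17.2% and 19.3%, and between epicatechin and taxifolin 4, beside 16.7%. Such differences were thus common among all genes below the filter. The brightest signal in any of these differences was 220.4, so none rested on a signal shown to be above background. COL21A1, picked out after its values were seen, read 59.1 untreated and 129 to 220.4 in the other 6 arrays, which all share that reference.

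The serum comparison asked how control serum differed from the untreated culture. The basement membrane chains COL4A1 and COL4A2 were higher with serum, and no collagen gene reached 2-fold: 0 of 11 compared genes, against 1.20% of all compared genes in either direction. COL4A1, the main type IV chain, read 8529 untreated, 7196 with catechin, 9689 with epicatechin, 8014 with taxifolin, 8171 with resveratrol, 13437 with control serum and 13966 with pycnogenol serum. Both serum arrays were above all of the other 5, with no overlap. The difference of control serum from untreated was 0.66 on the log2 scale, or 1.58-fold, and 5.73% of compared genes differed by at least as much in either direction. COL4A1 was the only collagen gene past 1.5-fold there, 1 of 11 genes, while 7.83% of all compared genes were past 1.5-fold. The summed signal of the mesenchymal markers was also higher in both serum arrays than in the other 5. Without FN1 it was 121980 and 125914 with the sera and 117981 to 124783 in the other 5, and overlapped. By gene, 3 of the 6 mesenchymal markers above the filter had both serum arrays above the other 5, beside 13.5% of all compared genes. These were FN1, CDH2 and TAGLN. The summed signal of the 6 measured chondrocyte and bone markers, of which SOX9 and RUNX2 passed the filter, was lower with the sera, at 10652 to 13819.5 against 14117 to 18701. RUNX2, a transcription factor of bone, read 5145 to 6032 without test serum and 4162 and 4049 with the sera. It was below the other 5 in both serum arrays, as were 16.1% of all compared genes. SOX9 overlapped, at 8458 to 13318 without test serum and 9413 and 6387 with the sera. Its second probe set also overlapped, at 5708 to 8401 without test serum and 4728 and 6479 with the sera. Between the sera the SOX9 probe sets gave -0.56 and 0.45, so the direction was not shared. The part of these markers in the COL4A1 difference was not tested. A bulk array cannot tell more transcript per cell from more cells with the transcript.

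The second COL4A1 probe set gave the same picture at lower signal. It read 865 untreated, 895 with catechin, 839.7 with epicatechin, 976 with taxifolin, 851 with resveratrol, 1323 with control serum and 1207 with pycnogenol serum. Both serum arrays were again above the other 5, and the difference of control serum from untreated was 0.61.

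COL4A2, which pairs with COL4A1 in the type IV helix, read 6924 untreated, 6792 with catechin, 7556 with epicatechin, 7786 with taxifolin, 7633 with resveratrol, 9474 with control serum and 8879.9 with pycnogenol serum. Both serum arrays were above the other 5, with a difference of 0.45 for control serum against untreated. The second COL4A2 probe set did not follow: it read 409 untreated, 372 with control serum and 508 with pycnogenol serum, and 414 to 548 in the 4 compound arrays, so the groups overlapped. The COL4A2 difference therefore rests on the brighter probe set.

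COL13A1, a collagen held in the cell membrane at adhesion sites, was lower with serum on all 3 of its probe sets. With arrays centred on their medians, the separation from the other 5 arrays held on its dimmest probe set alone. Its reading probe set read 20207 untreated, 18456 with catechin, 19350.4 with epicatechin, 19828 with taxifolin, 18465 with resveratrol, 17042 with control serum and 15312 with pycnogenol serum. The dimmest one read 2573 untreated, 1603 to 1882 with the compounds, 1482 with control serum and 1423 with pycnogenol serum. The other one read 3419 untreated, 2502 to 2657 with the compounds, 1883 with control serum and 2246 with pycnogenol serum. Each probe set put both serum arrays below the other 5. The differences of control serum from untreated were -0.25, -0.80 and -0.86 in that order. The untreated array was the highest of the 7 on all 3 probe sets, and the 2 dimmer ones are of the x type.

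**Figure D3:**
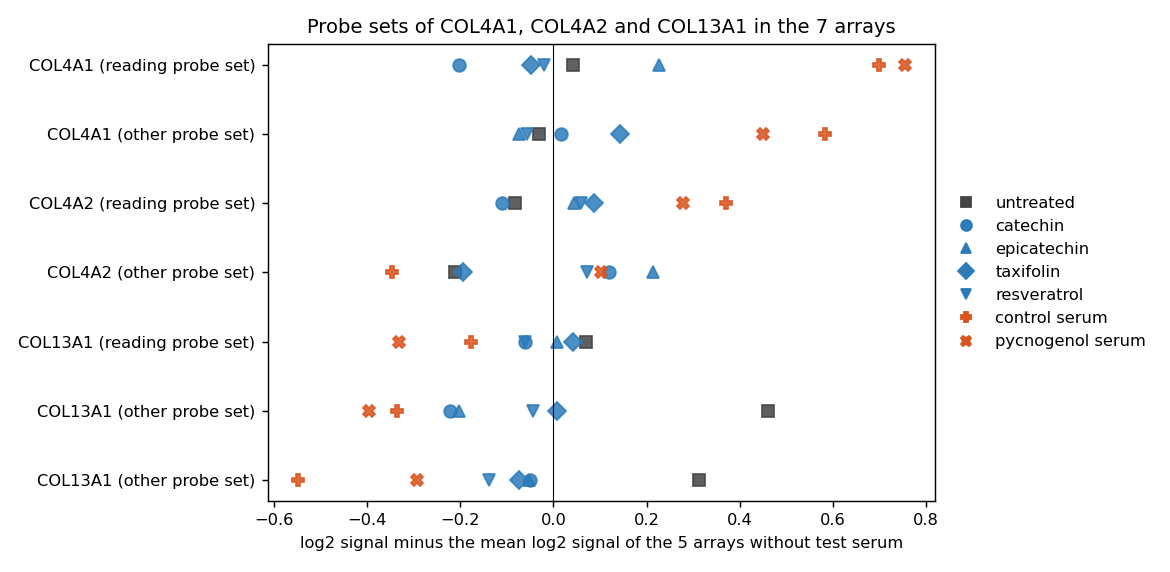
Log2 signal of each probe set above the filter for COL4A1, COL4A2 and COL13A1, minus its mean over the 5 arrays without test serum; symbols mark the 7 arrays. Both COL4A1 probe sets and 1 of 2 COL4A2 probe sets have the serum arrays (orange) to the right of all others. All 3 COL13A1 probe sets have the serum arrays to the left, which with arrays centred on their medians holds for the dimmest alone.

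Over the 11 genes the median difference of control serum from untreated was -0.042, with 4 genes above and 7 below 0, beside a median of 0.0076 for all compared genes. With each array centred on its median, which moved the median of all genes to 0.18, the collagen median was 0.13. On that scale COL4A1 lay at 0.82, COL4A2 at 0.62 and COL13A1 at -0.077. Centring moves every gene by the same amount, so positions relative to the median of all genes stay as they were.

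The sera were also set together against the other 5 arrays, a grouping that joins different treatments and holds no replicates. Both serum arrays lay outside the range of the other 5 for 4 of 11 collagen genes, 36.4%, beside 29.6% of all compared genes. These were COL4A1 and COL4A2 above, where the share over all genes was 13.5%, and COL13A1 and COL6A1 below, where it was 16.1%. The count over the collagen genes is thus near that of all genes. Centring on medians left COL4A1 and COL4A2 alone, 2 of 11, beside 32.5% of all genes. The size of the gap differed among the 4 genes. For COL4A1 the lower serum array exceeded the highest other array by 0.47 on the log2 scale, a gap that 40 of the 9888 genes, 0.405%, reached in that direction. The gap was 0.19 for COL4A2, reached by 3.34% of genes, 0.12 below for COL13A1, reached by 8.12%, and 0.053 below for COL6A1, reached by 11.9%.

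**Figure D4:**
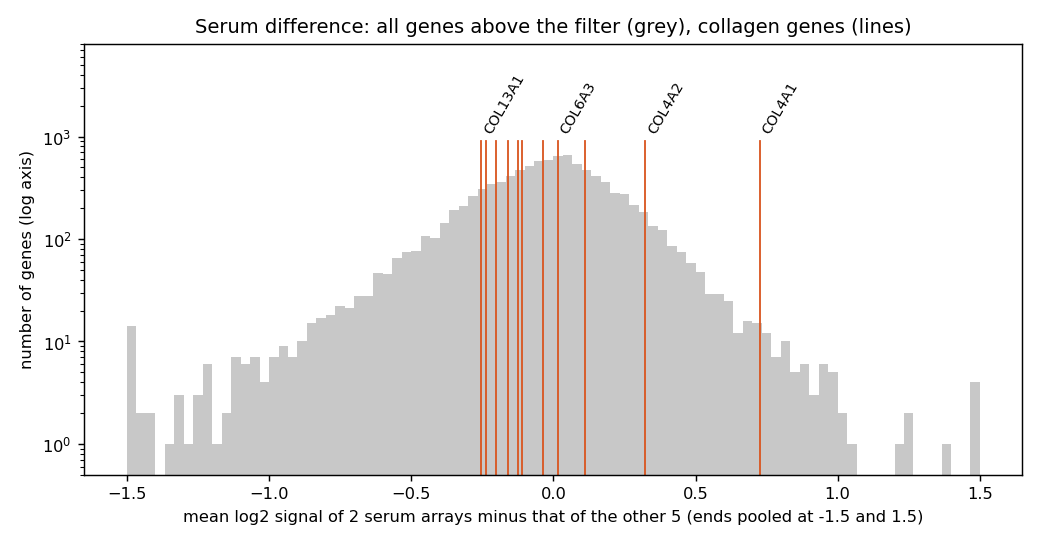
Mean log2 signal of the 2 serum arrays minus that of the other 5 for the 9888 genes above the filter (grey histogram, log count axis, ends pooled) with the 11 collagen genes as orange lines. COL4A1 lies at 0.73, COL4A2 at 0.32, COL6A3 at 0.015 and COL13A1 at -0.25, inside the spread of all genes.

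A further comparison set the pycnogenol-positive serum against control serum, the question being what pycnogenol intake added to serum. As the origin of the control serum is not given, intake cannot be told apart from a difference in donors. Collagen genes differed little between the sera. None of the 11 reached 2-fold, against 0.536% of all compared genes, and none reached 1.5-fold, against 4.24%. The median was 0.0052, with 6 genes above and 5 below 0, beside 0.0083 for all genes. COL4A1 differed by 0.056 and COL4A2 by -0.093. COL13A1 lay at -0.15 on its reading probe set and at -0.059 and 0.25 on the dimmer ones, so its probe sets did not share a direction. The extremes were COL11A2 at 0.29 and COL12A1 at 0.23 on the high side. Against the untreated culture, which both sera share as reference, pycnogenol serum gave 0.71 for COL4A1, 0.36 for COL4A2 and -0.40 for COL13A1, where control serum gave 0.66, 0.45 and -0.25. In that comparison 0 of 11 collagen genes and 2.24% of all compared genes were past 2-fold, and COL4A1 was the 1 collagen gene past 1.5-fold beside 10.0% of all.

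The 4 polyphenols were each set against the untreated culture, so that array enters all 4 differences. No collagen gene above the filter reached 2-fold with any of them. The shares of all compared genes past 2-fold were 0.455% for catechin, 0.314% for epicatechin, 0.465% for taxifolin and 0.728% for resveratrol. Medians over the 11 genes were -0.052, 0.034, 0.13 and -0.00066 in the same order, beside 0.035, 0.032, 0.032 and 0.025 for all genes. COL18A1 differed by 0.67 with catechin, 0.54 with epicatechin, 0.51 with taxifolin and -0.00066 with resveratrol. With catechin it was the 1 collagen gene of 11 past 1.5-fold, beside 3.55% of all compared genes, and its untreated signal of 219.5 was under the filter. Its second probe set gave 0.12, 0.65, 0.076 and 0.52, so the order of the compounds was not shared. No collagen gene passed 1.5-fold with epicatechin, taxifolin or resveratrol, beside 2.82%, 3.30% and 4.46% of all compared genes.

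With the compounds COL4A1 differed by -0.25 with catechin, 0.18 with epicatechin, -0.090 with taxifolin and -0.062 with resveratrol, and its second probe set gave 0.048, -0.043, 0.17 and -0.025, with the opposite sign for catechin, epicatechin and taxifolin. COL4A2 lay between -0.028 and 0.17 on its brighter probe set. Its second probe set, also above the filter, gave 0.33 with catechin, 0.42 with epicatechin, 0.017 with taxifolin and 0.28 with resveratrol. COL13A1 lay below 0 with all 4 compounds on all 3 probe sets, from -0.027 to -0.13 on the reading probe set, -0.45 to -0.68 and -0.36 to -0.45 on the dimmer ones, all against the same untreated array. COL12A1 lay at -0.32 with resveratrol and COL6A3 at -0.17.

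Epicatechin, a flavan-3-ol, and taxifolin, a flavanonol, were the compounds given at the same dose and time. No collagen gene above the filter differed by 2-fold between them, beside 0.324% of all compared genes, and none by 1.5-fold, beside 3.47%. The 11 differences of epicatechin minus taxifolin ran from -0.49 for COL11A2 to 0.32 for COL4A5, with a median of -0.043 and 3 genes above 0. With no replicates these values carry no interval, and they do not show that the compounds act alike. Catechin and resveratrol were given at other doses, so their values stand beside these without a comparison.

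The genes that fold, export, fix and read collagen were followed as lists. Of 20 listed folding and modifying enzymes 17 were above the filter, and none reached 2-fold in any of the 7 comparisons. Control serum against untreated gave them a median of -0.012, with 8 above and 9 below 0. PPIB, a proline isomerase, read 32129 to 35440.0, PLOD2, a lysyl hydroxylase, 23026 to 25029, and P4HB, a subunit of prolyl hydroxylase, 19215 to 22269. SERPINH1, the collagen chaperone HSP47, picked out after its values were seen, read 3352 to 4532 without test serum and 4853 and 4574 with the sera. Of the 17 enzymes, 3 had both serum arrays above the other 5 and 0 had both below. The shares of all compared genes were 13.5% and 16.1%.

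Of 15 listed genes of procollagen export 13 were above the filter. On the reading probe sets none was at 2-fold, and the median with control serum was 0.0091. Another MIA3 probe set above the filter gave -1.27 with epicatechin and -1.31 with pycnogenol serum, both against untreated. The reading probe set of MIA3 gave -0.30 and -0.51 there. SEC23A, a coat protein of transport vesicles, read 10612 to 13203 without test serum and 9540 and 9248 with the sera. SEC23B, a further coat protein, read 10753 to 14514 in all arrays. SAR1A, the small GTPase that starts the coat, read 7991 to 8626 without test serum and 10256 and 11083 with the sera. Of the 13 export genes, 2 had both serum arrays above the other 5 and 3 had both below. The shares of all compared genes were 13.5% and 16.1%. Propeptide cleavage, crosslinking and fibril partners had 10 of 21 genes above the filter, none at 2-fold, and a median of -0.068. SPARC, a collagen-binding protein, read 23181 to 27026. LOXL2, a crosslinking oxidase, read 8999.7 to 11498 without test serum and 8464 and 9660.3 with the sera. FN1, fibronectin, which helps cells to lay down collagen, read 6343 to 7571 without test serum and 10325 and 10757 with the sera. All 4 FN1 probe sets above the filter put both serum arrays above the other 5. Of all compared genes 13.5% had both serum arrays above.

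Of 11 listed collagen receptors 5 were above the filter. ITGB1, the common beta subunit, read 42714 to 45420.2 in all arrays, and ITGA2, the collagen-binding alpha subunit, 22295 to 26537 without test serum and 20348 and 23446 with the sera. DDR2, a receptor kinase that binds fibrillar collagen, read 6720.03 untreated, 5656 with catechin, 5498 with epicatechin, 7102 with taxifolin, 5561 with resveratrol, 3412 with control serum and 2558 with pycnogenol serum. Both serum arrays were below all others, as for 16.1% of all compared genes. DDR2 differed by -0.98 with control serum against untreated and by -0.42 between the sera. Against untreated, pycnogenol serum gave -1.39, so that 1 of the 5 receptors was past 2-fold there, beside 2.24% of all compared genes. None of the 5 was past 2-fold in the 7 comparisons. Of the 3 other DDR2 probe sets above the filter, 2 also put both serum arrays below the other 5, with -1.65 and -1.19 for control serum, and the dimmest overlapped at -0.41. Between the sera these 3 gave 0.35, -0.36 and -0.49 in the same order, so the direction was not shared.

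Of 12 listed genes of collagen breakdown 8 were above the filter. Control serum against untreated gave them a median of 0.086, with 4 above and 4 below 0. These differences ran from -0.73 for MMP16 to 0.90 for MMP9, whose untreated signal of 238 was under the filter. None of the 8 reached 2-fold in the 7 comparisons on its reading probe set. With pycnogenol serum against untreated 1 did, MMP16 at -1.35, beside 2.24% of all compared genes. CTSB and CTSL, lysosomal proteases, read 15358 to 17962 and 5593 to 8306, and MMP14, a membrane collagenase, 5360.3 to 7330.3. MMP16 and MMP1, picked out after their values were seen, were lower with both sera than in the other 5 arrays, as were 16.1% of all compared genes. MMP16, a membrane metalloprotease, read 1667 to 1968 without test serum and 1183 and 774 with the sera. Its second probe set overlapped, at 244 and 522 with the sera and 352 to 593 without. Against untreated this second probe set gave -1.28 for control serum and -0.19 for pycnogenol serum, and between the sera 1.10. The reading probe set gave -0.73, -1.35 and -0.61 in that order, so the MMP16 value past 2-fold was not shared. MMP1, interstitial collagenase, read 1575 to 2089.8 without test serum and 990.02 and 1180.1 with the sera.

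**Figure D5:**
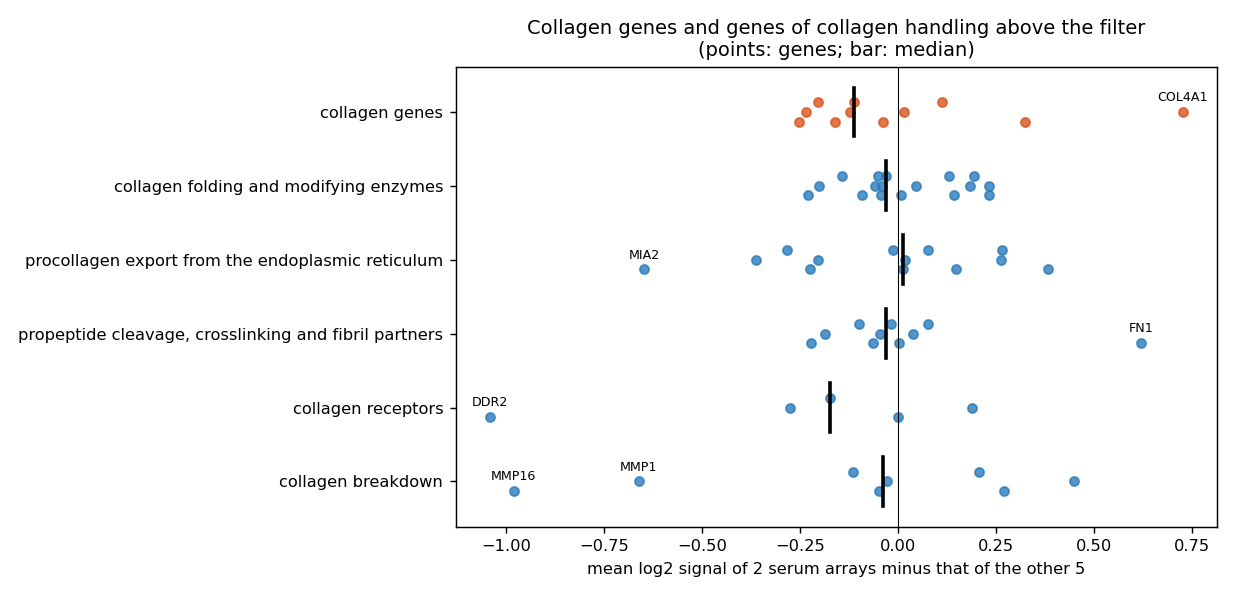
Mean log2 signal of the 2 serum arrays minus that of the other 5 for the collagen genes (orange) and 5 lists of genes that handle collagen (blue), with 1 point per gene above the filter and a bar at the list median. Named points are past 1.5-fold: COL4A1 at 0.73 and FN1 at 0.62 lie above 0, and DDR2 at -1.04, MMP16 at -0.98, MMP1 at -0.66 and MIA2 at -0.65 lie below.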

How the data were processed

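RNA was labelled with an Affymetrix kit, per the labels. The authors deposited 1 signal intensity per probe set and array, made with MAS5 per the submitters' processing notes; no version or detection call was at hand. Signals were linear, and each array's mean after trimming 2% at both ends was 1000.1. Of 54675 probe sets, 41097 named 1 gene, 1801 named several genes and 11777 none, and only the first kind was used. Symbols were updated by gene ID from RefSeq, GRCh38.p14. The floor, reading probe set and filter are those given in the report, computed with Python 3.11.15, numpy 2.4.6 and pandas 2.3.3. The fold counts were tested on simulated data whose changes were set past 2-fold. That checks the counting and cannot show how reliable the counts in these arrays are. The number of arrays limits the precision. With 1 array a group no test was possible. The naming rule took collagen genes above the filter, other collagen genes past 2-fold with a signal above the array's 75th percentile, and from each companion list the 3 highest mean signals and members past 2-fold above the filter; other genes are named for their known role or after their values were seen. The collagen genes and lists were chosen with earlier results of these data known. Alternatives were quantile normalization, median centring, no floor, a floor at the 40th percentile, no filter, a filter at the 75th percentile, other readings of probe sets and a 1.5-fold threshold; the untreated array as reference for pycnogenol serum and the marker sum without FN1 were added after seeing the data.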

Additional observations from a re-analysis of the deposited data

How the results depend on the processing

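No paired analysis was possible because each group held 1 array. Quantile normalization, no floor, a floor at the 40th percentile and the filter at the 75th percentile kept all counts at 2-fold at 0 and moved no collagen median by 0.1 or more. Median centring moved the control serum median to 0.13 and turned COL6A1 there from -0.058 to 0.11. It left 2 of 11 genes, COL4A1 and COL4A2, with both serum arrays outside the other 5, beside 32.5% of all genes. Without the signal filter, counts at 2-fold among 43 genes were 6 for control serum, 7 between the sera, 4, 4, 5 and 3 for catechin, epicatechin, taxifolin and resveratrol, and 4 for epicatechin against taxifolin, and 8 genes had both serum arrays outside the others. At that setting 9.06%, 8.47%, 8.41%, 8.43%, 8.85%, 10.02% and 8.52% of all genes were past 2-fold in the same order and 18.7% had both serum arrays outside, and the 32 added collagen genes were all under the filter. When a gene's probe sets were averaged, 12 collagen genes were compared, 9 of them among the 11. COL7A1 was the 1 gene past 2-fold with control serum and with epicatechin, beside 1.61% and 0.86% of all genes, and the resveratrol median was 0.15. Of these 12 genes 2, COL4A1 and COL13A1, had both serum arrays outside, beside 26.0% of all genes. The COL7A1 mean includes a second probe set that read 64.0 untreated and 143 to 263 in the other arrays. Without _x_at and _s_at probe sets, 11 collagen genes were compared, 5 of them shared with the original 11. COL5A1, at 55.9 with catechin, was 1 gene past 2-fold there, beside 1.39% of all genes, and over this other set of genes the control serum and resveratrol medians were 0.16 and 0.17. Both serum arrays were then above the other 5 for 3 genes, COL4A1, COL4A2 and COL5A1, and below for none. Outside in either direction lay 27.9% of all genes. COL13A1 had no probe set left at this setting, and COL6A1 lost its reading one. At 1.5-fold, 1 gene each counted with control serum and catechin. With the untreated array as reference, pycnogenol serum gave 0 genes and a median of -0.0096. Of 77 single-gene differences, 4 changed sign under quantile normalization, 15 under median centring and 24 when probe sets were averaged; the largest of these was 0.32 in size. Without _x_at and _s_at probe sets 9 of 56 changed sign, the largest of them 0.49 in size.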
